A study of Mus musculus with 4 samples.

Results

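Aldh1a1 and Aldh1a3 encode retinaldehyde dehydrogenases, and both were higher in mammary tumours of miR-9 knockout mice than in control tumours. They were taken by gene symbol, as 2 of the 1142 genes in the deposited tables. Aldh1a3 had the more abundant transcript in every sample and rose 3.79-fold, and Aldh1a1 rose 2.63-fold, as the authors scaled the samples. When the samples were scaled on the listed genes by RLE instead, the log2 changes were 0.82 for Aldh1a3 (DESeq2 adjusted p = 0.114) and 0.25 for Aldh1a1 (DESeq2 adjusted p = 0.777), and neither was called. RLE assumes that most genes do not change, which genes selected for differing, as here, do not meet. This comparison therefore cannot decide which scaling is right. Of the 3 other listed genes of the retinoid pathway, Dhrs3 was higher in the knockouts and Fabp5 and Cyp26b1 were lower. Cyp26b1, the gene for a retinoic acid-degrading enzyme, was 6.97-fold lower, on only 12 and 11 reads in the knockouts. Of all listed genes 38.5% were called lower.

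The samples were 2 tumours with the miR-9 knockout (knockouts 1 and 2) and 2 without it (controls 1 and 2). All came from female MMTV-PyMT mice on a mixed C57BL/6 background, with littermates as controls, so both groups carry the PyMT transgene, the polyoma middle T antigen under the mouse mammary tumour virus promoter. The labels name a deletion of miR-9 exon 1, bred from heterozygous miR-9+/- mice. They do not say which miR-9 locus it is, whether the tumours were homozygous, how old the mice were or whether the 2 samples of a group came from different animals. All p-values below thus rest on sample-to-sample spread that can be technical. No miR-9 transcript was among the listed genes (0 found), so the knockout itself was not checked here. Of the general epithelial markers Epcam, Cdh1, Krt8 and Krt18 none was listed, whereas keratins Krt5, Krt14 and Krt19 were.

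Retinoic acid is made from vitamin A in a pair of oxidation steps. Retinol is first oxidised to retinaldehyde, which short-chain dehydrogenases such as Dhrs3 can reduce back. The ALDH1A enzymes then oxidise retinaldehyde irreversibly to retinoic acid, which binds nuclear retinoic acid receptors and is broken down by CYP26 enzymes. In the mammary gland, ALDH1A1 and ALDH1A3 carry most of the aldehyde dehydrogenase activity by which progenitor-like and tumour-initiating epithelial cells are often sorted. ALDH1A1 is also abundant in liver and in fat.

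miR-9 is a microRNA, which recognises messenger RNAs mainly through its seed, bases 2 to 8. RefSeq (GRCm38.p6) places the same mature strands at 3 mouse loci: chr3:88215613-88215635, chr7:79505279-79505301 and chr13:83738821-83738843 for the 5p strand, all on the plus strand. They are shown because miR-9 is the microRNA whose gene was targeted, with the seed in capitals. How much miR-9 was left in the knockout tumours was not measured here.

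miR-9-5p: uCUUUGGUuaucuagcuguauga

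miR-9-3p: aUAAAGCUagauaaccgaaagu

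The 3′ UTRs of both enzymes were searched for the exact 7-base complement of either seed, with GENCODE M21 transcripts. In this search the protein-coding transcript with the longest 3′ UTR stood for each gene. For mRNA lengths, coding identity and shared stretches, below, the mRNA with the longest coding sequence did. The 499-base 3′ UTR of Aldh1a1-206 held no such match for either strand. The 1799-base 3′ UTR of Aldh1a3-201 held no match to the miR-9-5p seed and 1 match to the miR-9-3p seed, at base 1163 of the UTR. The 5′ UTR of Aldh1a1-206, however, held 1 match to the miR-9-5p seed. Both are printed in the sense of the mRNA with the match in capitals. The Aldh1a3 match is at chr7:66391520-66391526 on the minus strand, and the Aldh1a1 match is at chr19:20553194-20553200 on the plus strand (GRCm38). Matches to the seed without its last base were also counted in the 3′ UTRs. Aldh1a3-201 held 1 for miR-9-5p and 2 for miR-9-3p, the printed one among them, and Aldh1a1-206 held 0 for either strand.

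Aldh1a3-201, 3′ UTR: cgatccccataaAGCTTTAagggtagaacc

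Aldh1a1-206, 5′ UTR: cacagagccaggACCAAAGgagccaaacca

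A 7-base miR-9-3p match was present in the 3′ UTR of 12.5% of the 1039 listed genes with a 3′ UTR, against 11.3% of 21045 protein-coding genes. The shares for miR-9-5p were 15.0% of listed and 12.2% of all genes. The median 3′ UTR was longer in the listed genes, at 1125 bases against 960. A match is a stretch of letters and was not tested as a binding site.

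Aldh1a1 (ENSMUSG00000053279) spans bases 20492715 to 20643462 of chromosome 19 on the plus strand, and Aldh1a3 (ENSMUSG00000015134) spans 66390890 to 66427517 of chromosome 7 on the minus strand (GRCm38, as deposited). Aldh1a3 lies 13.1 Mb from the Mir9-3 locus of the same chromosome. GENCODE M21 lists 6 Aldh1a1 and 5 Aldh1a3 transcripts, of which 3 and 4 are protein-coding. C730002L08Rik and Gm6684 lie within or across the Aldh1a1 span on the opposite strand but share 0 exon bases with it.

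Aldh1a1 has a similar neighbour, Aldh1a7, a rodent copy on the same chromosome. Their coding sequences were identical at 91.6% of 1503 aligned bases, against 69.1% of 1495 bases for Aldh1a1 and Aldh1a3. Of all 50-base windows of the Aldh1a1 mRNA, 6.54% occurred unchanged in Aldh1a7, and none of the Aldh1a3 windows occurred in another gene. The longest run that Aldh1a1 and Aldh1a7 share is 100 bases, coding bases 757 to 856 of Aldh1a1, across 2 exons between bases 20629063 and 20630671 of chromosome 19. It is shown because a read inside it cannot be given to either gene.

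Aldh1a1 and Aldh1a7: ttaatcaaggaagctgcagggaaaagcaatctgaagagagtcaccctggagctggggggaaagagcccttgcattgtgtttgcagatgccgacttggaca

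Aldh1a7 was not in the table, and how the authors treated shared reads is not given in the sources used here. The Aldh1a1 values are therefore uncertain by the reads of such windows.

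The deposited values are read counts divided by a size factor for each sample, called normalised reads here. Relative depth was 1.04 to 1.11 in the knockouts and 0.885 to 0.998 in the controls. The listed genes held 694925 and 697334 reads in the knockouts and 512574 and 458335 in the controls. The table is a selection of differing genes: the group means of every gene differed at least 2.0-fold, 99.8% of genes passed the test at a limma adjusted p under 0.05 (61.3% higher and 38.5% lower in the knockouts), and in 99.9% the groups did not overlap. At an adjusted p under 0.01, which Aldh1a3 passed and Aldh1a1 did not, 51.1% were called. That a gene of the table was called therefore says little about it, and its size, its spread and its place among the other genes are given instead. Size and spread passed the same selection, so the fold changes, intervals and lack of overlap below are not free of it. Tumours are mixtures of cells, so fewer cells of a type and less RNA per cell cannot be told apart.

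Aldh1a3, which in mouse and human mammary epithelium is best known from luminal progenitors, had 2585 and 1438 normalised reads in knockouts 1 and 2, against 531 and 531 in controls 1 and 2. The controls differed from each other by 1.00-fold, and knockout 1 was 1.80-fold above knockout 2. The lowest knockout was 2.71-fold above the highest control, so the groups did not overlap. The counting intervals (95%, exact Poisson) ran from 2491 to 2682 and from 1366 to 1513 in the knockouts, so that the gap between the knockouts was wider than counting error. In the controls they ran from 487 to 578 and from 484 to 581. Aldh1a3 averaged 2012 ± 811 in knockouts and 531 ± 0.110 in controls (SD, n = 2 each), a log2 change of 1.86 ± 0.36 (SE, limma adjusted p = 0.00434; 95% interval 1.03 to 2.68).

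Aldh1a1 had 208 and 268 normalised reads in knockouts 1 and 2, against 105 and 75.7 in controls 1 and 2. The order of the knockouts was the reverse of that for Aldh1a3: knockout 2 was the higher here, by 1.29-fold. The controls differed by 1.39-fold, and the lowest knockout stood 1.98-fold above the highest control. Aldh1a1 averaged 238 ± 42.9 in knockouts and 90.5 ± 20.9 in controls (SD, n = 2 each), a log2 change of 1.39 ± 0.38 (SE, limma adjusted p = 0.0108; 95% interval 0.52 to 2.27). The counting intervals were 182 to 236 and 238 to 302 in the knockouts and 86.1 to 127 and 58.7 to 96.1 in the controls. Those of the controls overlapped each other, and those of the knockouts came within a few reads of each other.

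**Figure D1:**
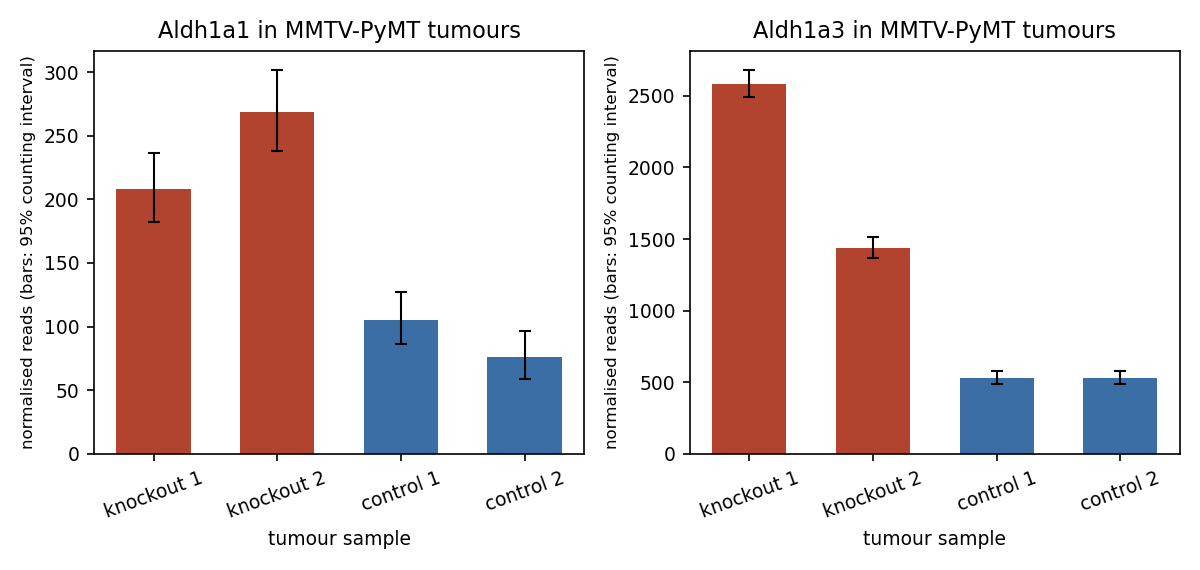
Normalised reads (y axis, from 0, a different scale in each panel) of Aldh1a1 and Aldh1a3 in each tumour sample (x axis), knockouts in red and controls in blue, with exact 95% Poisson counting intervals. Both knockouts stand above both controls for both genes; for Aldh1a3 knockout 1 reaches 2585 and knockout 2 1438, while for Aldh1a1 knockout 2 is the higher, at 268.

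Per kilobase of the exon length deposited with each gene, Aldh1a3 stood at 560 and 311 normalised reads in the knockouts and 115 and 115 in the controls. Aldh1a1 stood at 42.1 and 54.4 per kilobase in the knockouts and 21.3 and 15.3 in the controls. The level of Aldh1a3 was thus 13.3-fold and 5.73-fold that of Aldh1a1 in knockouts 1 and 2, against 5.39-fold and 7.50-fold in controls 1 and 2. With the length of the longest-coding mRNA instead (3443 bases for Aldh1a3 and 2358 for Aldh1a1) these ratios were 8.52 and 3.67 in the knockouts and 3.46 and 4.80 in the controls. Aldh1a3 was the more abundant transcript in all 4 samples by either length. Knockout 1 alone had a ratio above both controls, and knockout 2 lay between the controls.

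The log2 change of Aldh1a3 exceeded that of Aldh1a1 by 0.46. An exact two-sided permutation test over the 4 samples gave p = 0.667, where 0.333 is the smallest p the design allows. Without knockout 1 the difference was -0.14, and without knockout 2 it was 1.07, so its direction rested on knockout 1. These samples do not show that the enzymes changed by different amounts, nor that they changed alike.

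Among the 700 genes with a positive log2 change, that of Aldh1a3 ranked 302 and that of Aldh1a1 ranked 483 by size. The median log2 change was 1.70 over those genes and 1.23 over all listed genes. Aldh1a3 lay 0.63 above the median of all listed genes, and Aldh1a1 lay 0.17 above it. Without control 2, Aldh1a1 lay 0.23 below the median of that fit, and Aldh1a3 0.47 above it. Per kilobase and among all 1142 genes, Aldh1a3 ranked 93 by level in the knockouts and 243 in the controls, and Aldh1a1 ranked 518 in the knockouts and 719 in the controls.

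The scaling of the samples decides part of this. When the samples were scaled on the listed genes themselves, the median log2 change of all genes fell to 0.48 with TMM factors and 0.13 with RLE factors, and 60.4% of genes were called with TMM (248 higher and 442 lower) and 49.4% with RLE (122 higher and 442 lower), against 700 and 440 with the deposited scaling. The log2 change of Aldh1a3 was 1.18 with TMM (edgeR adjusted p = 0.0440) and 0.82 with RLE (DESeq2 adjusted p = 0.114). That of Aldh1a1 was 0.62 with TMM (edgeR adjusted p = 0.173) and 0.25 with RLE (DESeq2 adjusted p = 0.777), so neither call held under RLE and that of Aldh1a1 held under neither. Relative to the median of the table, Aldh1a3 remained 0.70 and 0.69 above it and Aldh1a1 0.14 and 0.11 above it. Both changes stayed positive under all 4 scalings, equal totals of the listed genes included. TMM and RLE assume that most genes do not change, which a table selected for difference does not meet. They draw the median of the table towards 0, so these fits cannot decide which scaling is right.

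**Figure D2:**
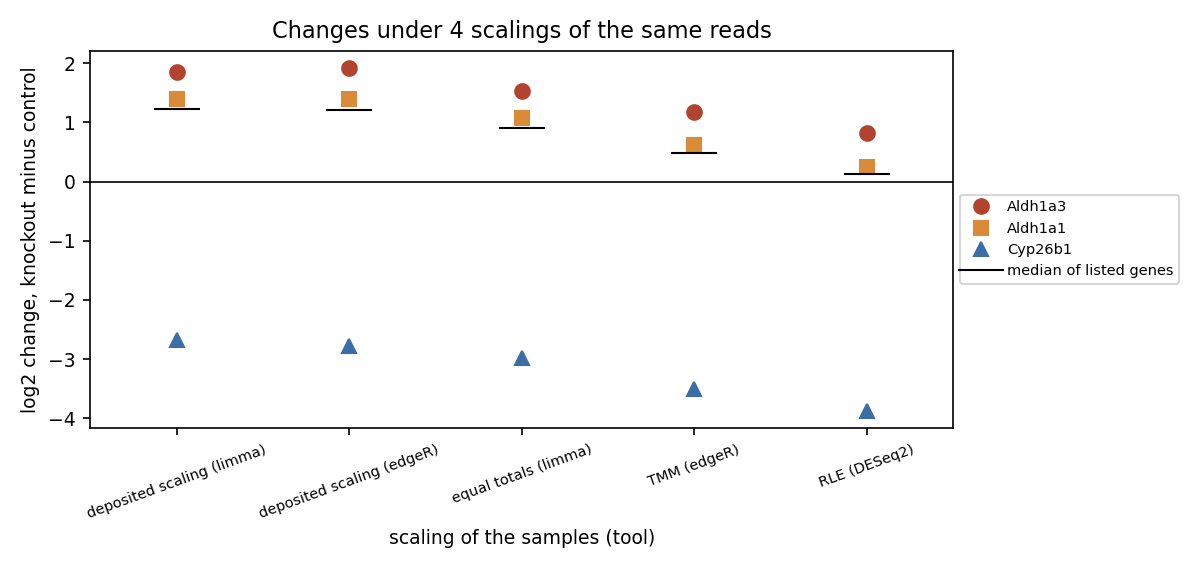
Log2 change, knockout minus control (y axis), of Aldh1a3, Aldh1a1 and Cyp26b1 under 4 scalings of the same reads (x axis, with the tool; the deposited scaling is shown for 2 tools), with the median of all listed genes as a black dash. Aldh1a1 lies close above the dash under each scaling, Aldh1a3 lies 0.63 to 0.72 above it, and Cyp26b1 stays below 0, between -2.67 and -3.88.

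Leaving out a sample changed the calls as well. Without control 1 or control 2 both genes were still called, with log2 changes of 1.63 and 1.16 for Aldh1a1 and 1.86 and 1.86 for Aldh1a3, where 86.7% and 93.7% of genes were called and the lone control is assumed to vary as the knockouts do. Without knockout 1 the log2 changes were 1.58 for Aldh1a1 (limma adjusted p = 0.131) and 1.44 for Aldh1a3 (limma adjusted p = 0.12), and without knockout 2 they were 1.21 (limma adjusted p = 0.184) and 2.28 (limma adjusted p = 0.0958). In those fits the lone knockout is assumed to vary as the controls do, and only 13 of the 1142 genes (1.14%) were called in each.

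Of 80 other genes of the retinoid pathway looked up, 3 were listed: 1 was higher and 2 were lower in the knockouts. For comparison, 1039 of 21045 protein-coding genes with a 3′ UTR were listed, so this count alone says little about the pathway. The same background applies to the counts of listed genes below. For their directions the background is the whole table, 61.3% called higher and 38.5% lower. Listed were 1 of 15 genes of uptake, storage and transport (Fabp5) and 1 of 22 of retinol oxidation and retinaldehyde reduction (Dhrs3). Of 5 genes of retinoic acid breakdown 1 was listed (Cyp26b1). Besides Aldh1a1 and Aldh1a3, 0 of 4 genes of retinaldehyde oxidation were listed, and 0 of 16 receptors and cofactors. Of 25 reported retinoic acid targets 2 were listed, again Cyp26b1 and Dhrs3. The levels of the others are not known from this table, Aldh1a2 among them.

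Cyp26b1, a cytochrome P450 that hydroxylates retinoic acid and so clears it, had 10.8 and 10.5 normalised reads in the knockouts, against 62.1 and 87.0 in the controls. The groups were 5.73-fold apart at their nearest values, and the knockouts were nearly equal. It averaged 10.7 ± 0.210 in knockouts and 74.6 ± 17.6 in controls (SD, n = 2 each), a log2 change of -2.67 ± 0.53 (SE, limma adjusted p = 0.00441). The knockout values rest on 12 and 11 reads, with counting intervals of 5.60 to 18.9 and 5.26 to 18.9, and control values on 62 and 77 reads. The fall held under each scaling, with a log2 change of -3.51 under TMM (edgeR adjusted p = 0.00776) and -3.88 under RLE (DESeq2 adjusted p = 8.84e-07).

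Dhrs3, a reductase that turns retinaldehyde back into retinol and is itself induced by retinoic acid, had 1145 and 1300.0 normalised reads in the knockouts, against 448 and 691 in the controls. The lowest knockout was 1.66-fold above the highest control, a narrower gap than for either ALDH1A gene. Its log2 change was 1.13 ± 0.34 (SE, limma adjusted p = 0.0135), slightly under the median of the table. It was 0.38 under TMM (edgeR adjusted p = 0.259) and 0.03 under RLE (DESeq2 adjusted p = 0.964), neither of them called.

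Fabp5, a fatty acid carrier that also delivers retinoic acid to the nuclear receptor PPAR delta, had 1507 and 1869 normalised reads in the knockouts, against 4133 and 3216 in the controls. The controls lay at least 1.72-fold above the knockouts, and the log2 change was -1.12 ± 0.32 (SE, limma adjusted p = 0.0124). The log2 change was -1.89 under TMM and -2.27 under RLE. Of the 50-base windows of the Fabp5 mRNA 21.1% also occur in other genes, Fabp5l2 and predicted genes, so its level is uncertain by reads from those copies.

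**Figure D3:**
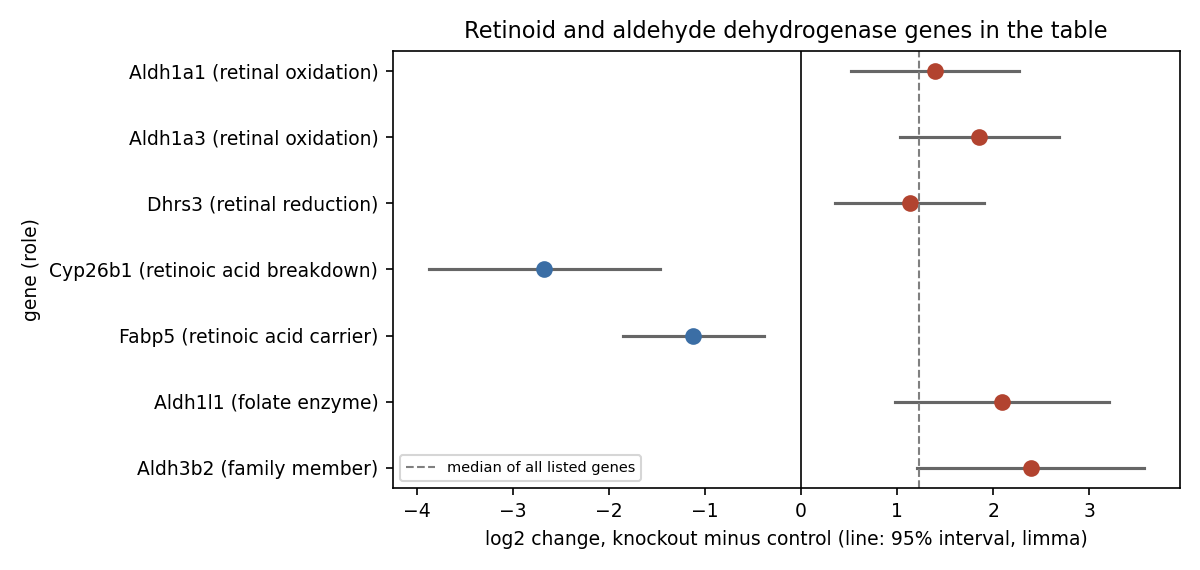
Log2 change, knockout minus control, with its 95% limma interval (x axis), of the 7 listed retinoid and aldehyde dehydrogenase genes (y axis, with their role); red points are higher and blue points lower in the knockouts. The 4 aldehyde dehydrogenases and Dhrs3 lie right of 0 and Cyp26b1 and Fabp5 left of it; the dashed line is the median of all listed genes, 1.23.

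Of 19 aldehyde dehydrogenases other than Aldh1a1 and Aldh1a3, 2 were listed and both were higher in the knockouts. Of all listed genes 61.3% were called higher, so their shared direction says little. Aldh1l1, which oxidises formyltetrahydrofolate in folate metabolism, had 84.0 and 161 normalised reads in the knockouts, against 27.1 and 26.0 in the controls. Its controls were nearly equal and its knockouts 1.92-fold apart, the same kind of spread as for Aldh1a3, although knockout 2 was here the higher. Its log2 change was 2.09 ± 0.49 (SE, limma adjusted p = 0.00728), and 1.44 under TMM (edgeR adjusted p = 0.0430) and 1.08 under RLE (DESeq2 adjusted p = 0.215).

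Aldh3b2, which oxidises fatty aldehydes in mouse, had 375 and 610 normalised reads in the knockouts, against 54.1 and 150 in the controls. The controls were 2.78-fold apart, the widest of the 7 genes, and the groups 2.50-fold apart at their nearest values. The log2 change was 2.39 ± 0.52 (SE, limma adjusted p = 0.00607), 1.66 without control 1 and 3.12 without control 2. Of its 50-base windows 24.2% occur also in Aldh3b1 or Aldh3b3, neither of which was listed, so its value is uncertain. As for Aldh1a1 and Aldh1a3, none of these 5 genes was called by limma without knockout 1 or without knockout 2, in fits that call 1.14% of genes; their directions did not change.

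None of the other 18 stem and progenitor markers looked up, Kit, Prom1, Cd44 and Sox9 among them, was in the table, so the change of Aldh1a1 and Aldh1a3 could not be set beside theirs. Of 9 luminal progenitor genes 2 were listed, Itga2 and Lif, 1 higher and 1 lower, with summed normalised reads of 684 and 605 in the knockouts against 775 and 540 in the controls. Aldh1a1 and Aldh1a3 are made by several cell types, and markers of those and of others moved in the same samples. Mature luminal genes (6 of 11 listed, all 6 higher) summed to 21740 and 26833 in the knockouts against 5319 and 8736 in the controls. Basal and myoepithelial genes (7 of 8 listed, 6 higher and 1 lower) summed to 29109 and 28041 in the knockouts against 6686 and 9170.2 in the controls.

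Adipocyte genes (2 of 8 listed, both higher) summed to 129 and 468 in knockouts 1 and 2 against 12 and 33.9 in the controls, and hepatocyte-type genes (2 of 8 listed, both higher) to 4163 and 5909 against 77.2 and 284. The 2 hepatocyte-type genes were Fgb and Fgg, of fibrinogen. Liver plasma protein genes outside that list, looked up after the values were seen, moved both ways. Ahsg, Fetub and Kng2 had log2 changes of -3.09, -2.81 and -2.92, whereas Proc, Apof and Itih2 had 4.36, 4.41 and 3.63. In knockout 2 and control 2 the adipocyte and hepatocyte-type sums were the larger of their groups, as were the mature luminal, fibroblast and macrophage sums. Aldh1a1 was larger in knockout 2 and control 1, and Aldh1a3 in knockout 1, with nearly equal controls. Fibroblast genes (2 of 8 listed) summed to 17318 and 22758 in the knockouts against 5820.5 and 8342 in the controls, and macrophage genes (6 of 8 listed) to 35961 and 43072 against 9683 and 16681. No listed gene of these 6 lists was at 0 in any sample. Skeletal muscle genes (7 of 7 listed) were all lower, with sums of 64.2 and 35.5 in the knockouts against 580.2 and 938 in the controls. The part of these cell types in the Aldh1a1 and Aldh1a3 values was not tested.

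The genes with the most similar profiles were found by the Euclidean distance between log2(value + 1) profiles over the 4 samples, each centred on its own mean and leaving out predicted genes. With 4 samples this is a description of shape only. Nearest to Aldh1a1 were Lmx1b, a LIM homeobox transcription factor gene (distance 0.134), Tmem116 (0.166), Vill, a villin-like actin-binding protein gene (0.198), Slc22a18 (0.204) and Hs6st2, a heparan sulfate sulfotransferase gene (0.223). Lmx1b had 295 and 361 normalised reads in the knockouts against 161 and 106 in the controls, knockout 2 and control 1 being the higher of their groups, as for Aldh1a1. Nearest to Aldh1a3 were Col4a3, a basement membrane collagen gene (0.282), Hgf, the hepatocyte growth factor gene (0.382), C2cd4b (0.384), Krt71, an inner root sheath keratin gene (0.388), and Mme, the neprilysin gene (0.393). Mme, the most abundant of them, had 1693 and 1126 normalised reads in the knockouts against 427 and 511 in the controls.

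**Figure D4:**
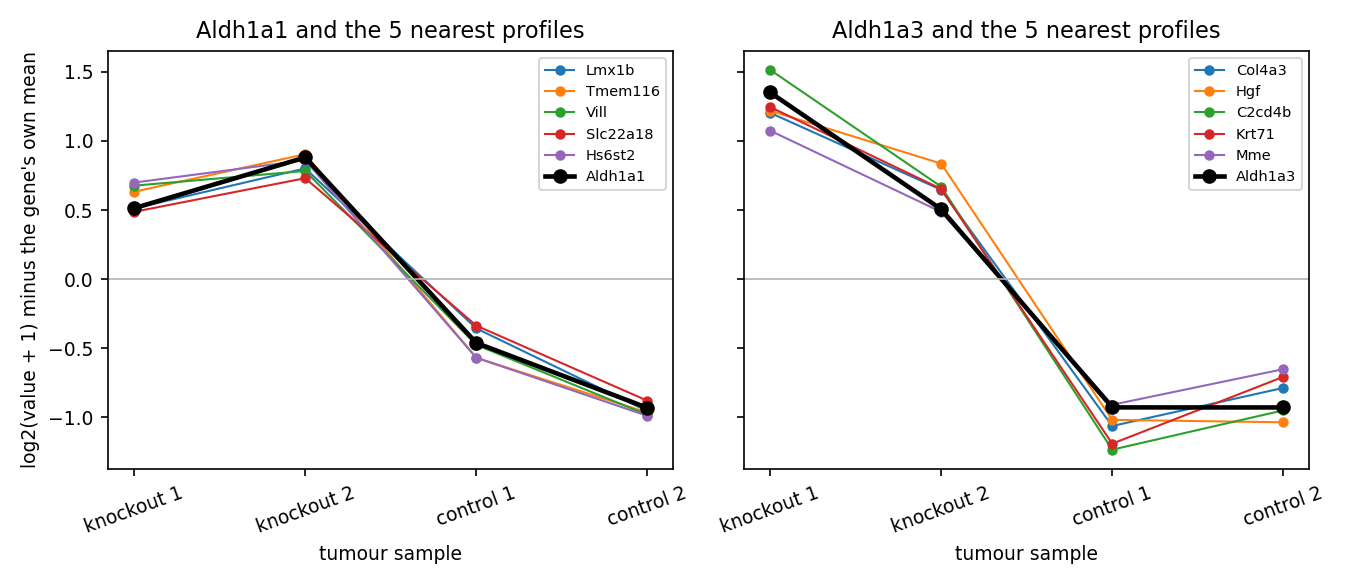
Centred log2(value + 1) profiles (y axis) over the 4 tumour samples (x axis) of Aldh1a1 (left, black) and Aldh1a3 (right, black) with the 5 nearest genes of each. The Aldh1a1 group is higher in knockout 2 than in knockout 1, and the Aldh1a3 group is higher in knockout 1.

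The profiles of Aldh1a1 and Aldh1a3 were 1.03 apart: 355 of the 1141 other genes were closer to Aldh1a1 than Aldh1a3 was, and 309 were closer to Aldh1a3 than Aldh1a1 was. Neighbours on the chromosome did not share 1 direction. The nearest listed genes to Aldh1a3 were Pcsk6, 0.341 Mb away, with a log2 change of -1.02, and Adamts17, 0.412 Mb away, with 1.93. Those nearest to Aldh1a1 were Mamdc2, 2.66 Mb away, with 2.16, and Gcnt1, 3.14 Mb away, with -1.04.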

How the data were processed

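Tables from RNA-seq of 4 tumours, grouped by sample title, were the input. The deposited signal values are read counts that the authors divided by 1 size factor per sample: the lowest nonzero value of a sample was taken as 1 read, and 100% of its values came out whole with it (tolerance 1e-06). In control 1 that step, 1.00215, was the nearest to 1, and 100% of its values came out whole with it too. Bowtie 0.12.2, hg38, GRCm38 and mm10 stand in the submitters' processing notes with no role. For the counting tool, strand setting and choice of genes, nothing is given in the sources used here.

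limma 3.58.1 (R 4.3.3, trend) was fitted to log2(value + 1) of the 1142 genes with a mean of at least 0.5 (0 removed), with genotype as the term and Benjamini-Hochberg adjustment at 0.05. Changes on this scale understate those of low genes. Alternatives used edgeR 4.0.16 (1142 genes called with the deposited scaling) and DESeq2 1.42.0 on the reads. The Poisson intervals cover counting error only, and the limma intervals rest on the spread between samples. The fit was checked on simulated data in which most genes did not change, so that check does not cover a table selected for difference. The 7 named pathway genes are all those listed; the 5 nearest profiles were taken per enzyme. Members and lists were chosen with earlier results of these data known. Sequences are from GENCODE M21 and RefSeq, both GRCm38.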

Additional observations from a re-analysis of the deposited data

How the results depend on the processing

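Scaled on the listed genes, the log2 change of Aldh1a1 was 0.62 (TMM) and 0.25 (RLE) and that of Aldh1a3 0.82 (RLE), none of them called. Both methods assume mostly unchanged genes, which this selected table does not offer. The number of genes called was 690 with TMM, 564 with RLE and 584 at an adjusted p under 0.01, against 1140. At 0.01 Aldh1a1 (1.39) was not called, and 1 of the 3 other retinoid genes was. Under RLE 1 of the 2 other aldehyde dehydrogenases was called. The cause was not tested. Leaving out each sample in turn gave log2 changes of 1.16 to 1.63 for Aldh1a1 and 1.44 to 2.28 for Aldh1a3, 13 to 1070 genes called, 0 to 3 retinoid genes, 0 to 2 other aldehyde dehydrogenases, and a difference between the enzymes of -0.14 to 1.07, the first of them reversed. Without either knockout 2 controls face a lone sample. A pseudocount of 0.1 or 5, no filter, a minimum mean of 5, equal totals, and edgeR or DESeq2 with the deposited scaling kept the direction and call of Aldh1a1 and Aldh1a3. With the replicate number as a block both were called (log2 changes 1.39 and 1.86; 1142 genes called). The labels do not say that a number pairs samples, and same-numbered deviations correlated at 0.043 across genes. Among the 7 named pathway genes Cyp26b1 had the fewest reads in the knockouts, 12 and 11, and Aldh1l1 the fewest in the controls, 27 and 23.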

Other observations

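A search of the deposited gene descriptions for retinoic acid, aldehyde dehydrogenase and alcohol dehydrogenase, made after the values were seen, added 4 genes to those described above. Rai2, retinoic acid induced 2, had 122 and 104 normalised reads in the knockouts against 27.1 and 37.3 in the controls (log2 change 1.79, limma adjusted p = 0.0084). Adhfe1, an iron-containing alcohol dehydrogenase, had 57.8 and 89.2 in the knockouts against 23.0 and 24.9 in the controls (log2 change 1.55, limma adjusted p = 0.0155). Raet1e and Raet1d, retinoic acid early transcript genes that encode ligands of the NKG2D receptor of natural killer cells, were lower in the knockouts. Raet1e had 42.5 and 42.2 in the knockouts against 312 and 189 in the controls (log2 change -2.49, limma adjusted p = 0.00289), and Raet1d had 2.71 and 0 in the knockouts against 32.1 and 15.8 in the controls. Raet1d lies within the span of Raet1e on the same strand, so reads from any stretch that both share cannot be told apart. Whether they share exon bases was not tested. As in the whole table, of which 99.8% was called, the calls alone say little.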
